A study of Mus musculus with 6 samples.

Results

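The genes described here are 32 genes of the ATF4 response, the programme with which cells adjust amino acid supply and serine-folate metabolism under nutrient or protein-folding stress. They were taken as a list of symbols, and 32 of 32 were found among the 55334 gene IDs of the deposited table and passed the low-count filter. RNA was sequenced from Lewis lung carcinoma cells, a mouse lung cancer line, that were marked with green fluorescent protein (GFP) and had received a scrambled guide (Scramble) or a guide targeting Jag2, a gene for a Notch ligand (JAG2KO). Per the labels, both kinds of cell were grown as flank tumours in mice and sorted at endpoint as cells positive for GFP and negative for CD45 and DAPI. Each group had 3 libraries, of 39448304 to 43923565 counts in Scramble and 37036772 to 42914376 in JAG2KO. The mice's strain and age, whether the edited cells were 1 clone, and whether each library came from a separate mouse are not stated in the labels. The p-values therefore measure only the spread among the 3 libraries of a group, and this spread may be technical. The comparison asks how sorted tumour cells with the Jag2 guide differed from those with the scrambled guide.

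ATF4 is a transcription factor whose mRNA is present in unstressed cells but is translated mainly when eIF2, the factor that brings the initiator tRNA to the ribosome, is phosphorylated. The protein pairs with C/EBP factors on a composite DNA element and raises genes for amino acid synthesis, amino acid uptake, tRNA charging and the mitochondrial folate pathway, together with feedback genes that end the response. In the serine branch, Phgdh, Psat1 and Psph turn a glycolytic intermediate into serine. Shmt2, Mthfd2, Mthfd1l and Aldh1l2 then handle the carbon unit of serine inside mitochondria, and Shmt1 does so in the cytosol. Because Atf4 is controlled in large part through translation, its mRNA level is not a measure of its protein.

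Of the 32 genes, 13 fell in JAG2KO, 1 rose and 18 did not pass the threshold (edgeR quasi-likelihood test, p-values adjusted over all tested genes by Benjamini-Hochberg, BH, and called under 0.05). Among all 16049 tested genes 12.5% were called lower and 11.8% higher, 24.3% in all, against 40.6% of these genes lower and 3.12% higher. The list was chosen with earlier results of these data known, so these shares are a description without a test. The median log2 fold change (JAG2KO over Scramble) was -0.15, beside 0.00 over all tested genes, and 23 of 32 values were below 0, as were 49.8% of those of all tested genes. Vldlr, Chac1, Slc7a11, Mthfd2 and Trib3 fell most, by 1.80 to 2.63 times, whereas Atf4 itself, Ddit3, Phgdh, Shmt1 and Shmt2 did not pass. Without JagKO2, 12 fell and 4 rose. For 9 of the 13 genes the call held under all 12 alternative settings. Atf3, Pycr1, Slc7a11 and Slc7a5 lost theirs when single libraries were left out, and the values are given with each gene. Fewer cells with a programme and less RNA per cell cannot be told apart in such bulk samples.

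The composite element was looked for by its letters in RefSeq promoter windows (GRCm38.p6), each from 250 bases before to 50 bases after a gene's start. The letters were TGATGNAA, where N is any base, on both strands, and windows were at hand for 28 of the 32 genes. Slc7a5, Eif4ebp1, Slc1a5 and Aldh1l2 had no window and were not searched, and of these Slc7a5 and Eif4ebp1 fell. Such a match stood in 3.97% of all 32851 windows and in 2.31% of the 13714 windows of tested genes. Of the 28 genes, 9 held a match, and 8 of these 9 fell in JAG2KO: Asns, Atf3, Chac1, Nupr1, Pycr1, Slc7a11, Trib3 and Vldlr. The ninth, Slc1a4, had a log2 fold change of -0.07. The other 19 genes with a window held 3 that fell (Atf5, Psat1 and Mthfd2), 1 that rose (Slc38a2) and 15 that did not pass. The median log2 fold change was -0.69 with a match and -0.11 without. The 28 genes were listed as genes of the ATF4 response, with earlier results of these data known. Their share of matches and of falls is therefore no independent evidence about the element, and it was not tested. Across all tested genes with a window the share called lower was 16.3% of 301 with a match and 14.6% of 10473 without. These letters are a description of the windows, not evidence that a factor bound there. The stricter form TGATGCAA, which is contained in the first, stood in 0.895% of all windows and in 7 of the 28 genes, of which 6 fell. Of the 80 tested genes with that form, 23.8% were called lower, against 14.6% of the 10694 without it. These shares do not stand apart from the list. The 301 genes include 9 listed genes, of which 8 fell, and the 80 include 7, of which 6 fell. The share among genes outside the list was not taken separately, so neither 16.3% nor 23.8% can be read as a share outside it.

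The sequences are printed 5′ to 3′ on the strand of the gene because 8 of these 9 genes fell, with the matched letters in capitals. Where the match lies on the other strand the capitals read TTGCATCA or TTACATCA. Stretches that touch an annotated exon are cut to 30 bases. Positions count from the RefSeq start, with -1 the last base before it.
Asns (chr6:7693214-7693243, minus strand, match at -23 to -16): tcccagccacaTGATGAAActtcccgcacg
Chac1 (chr2:119351024-119351081, plus strand, match at -193 to -186): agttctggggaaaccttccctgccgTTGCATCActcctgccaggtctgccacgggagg
Slc7a11 (chr3:50443628-50443704, minus strand, matches at -66 to -59 and -47 to -40): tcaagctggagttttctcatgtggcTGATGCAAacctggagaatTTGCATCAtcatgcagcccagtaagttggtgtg
Atf3 (chr1:191183411-191183468, minus strand, match at -110 to -103): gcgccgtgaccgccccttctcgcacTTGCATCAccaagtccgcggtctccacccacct
Nupr1 (chr7:126625562-126625591, minus strand, match at -110 to -103): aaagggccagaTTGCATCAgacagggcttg
Pycr1 (chr11:120643819-120643876, minus strand, match at -103 to -96): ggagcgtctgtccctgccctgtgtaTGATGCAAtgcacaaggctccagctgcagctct
Vldlr (chr19:27216809-27216838, plus strand, match at -200 to -193): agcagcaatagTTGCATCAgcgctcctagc
Trib3 (chr2:152344028-152344057, minus strand, match at 15 to 22): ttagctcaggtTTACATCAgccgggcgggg
Slc1a4 (chr11:20332699-20332728, minus strand, match at -4 to 4): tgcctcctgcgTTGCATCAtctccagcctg
Slc7a11 carried the letters in both orientations. Vldlr has 2 windows, and the match stood in 1 of them. Asns and Trib3 held TGATGAAA and TGATGTAA, and the others the stricter form.

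Jag2 itself was near 1 CPM (counts per library, scaled to a common total) in both groups (1.21 ± 0.268 CPM in Scramble against 0.807 ± 0.297 CPM in JAG2KO) and was not called, and an edited gene can still be transcribed, so this does not check the labels. Of the tumour cell and gate markers tested, the keratin gene Krt8 alone was called. It measured 128, 119 and 125 CPM in Scramble against 4.52, 3.17 and 4.71 CPM in JAG2KO (log2 fold change -4.90, edgeR BH-adjusted p = 1.72e-10). Its partner Krt18 measured 268 ± 7.86 CPM in Scramble against 307 ± 26.4 CPM in JAG2KO. The sorted cells expressed Vim at 4763 to 5814 CPM, whereas Epcam and Cdh1 were at most 1.45 CPM and the lung factor Nkx2-1 had 0 counts in every library. Ptprc, the gene of CD45, measured 2.24, 2.09 and 2.11 CPM in Scramble against 2.46, 3.89 and 2.42 CPM in JAG2KO. Every JAG2KO library was higher, but Ptprc was not called (log2 fold change 0.44, edgeR BH-adjusted p = 0.246). Macrophage markers summed to 61.2 to 70.7 CPM in Scramble and 94.5 to 113 CPM in JAG2KO, with 4 of 12 higher and 1 lower. Lyz2 alone measured 21.3 ± 2.56 CPM in Scramble against 47.8 ± 5.73 CPM in JAG2KO. Endothelial markers summed to 30.9 to 34.2 CPM in Scramble and 47.8 to 62.8 CPM in JAG2KO, with 6 of 10 higher. Fibroblast and pericyte markers summed to 4642 to 4802 CPM in Scramble and 5947 to 9302 CPM in JAG2KO, with 5 of 10 higher and 1 lower. Most of that sum was Col3a1, at 3616 ± 122 CPM in Scramble against 5623 ± 1393 CPM in JAG2KO. The lower gene was Fap, at 19 ± 1.11 CPM in Scramble against 3.61 ± 1.14 CPM in JAG2KO. Over all tested genes 11.8% were higher and 12.5% lower. Of these 32 markers, 0 were at 0 in all libraries, and their part in the results here was not tested.

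**Figure D1:**
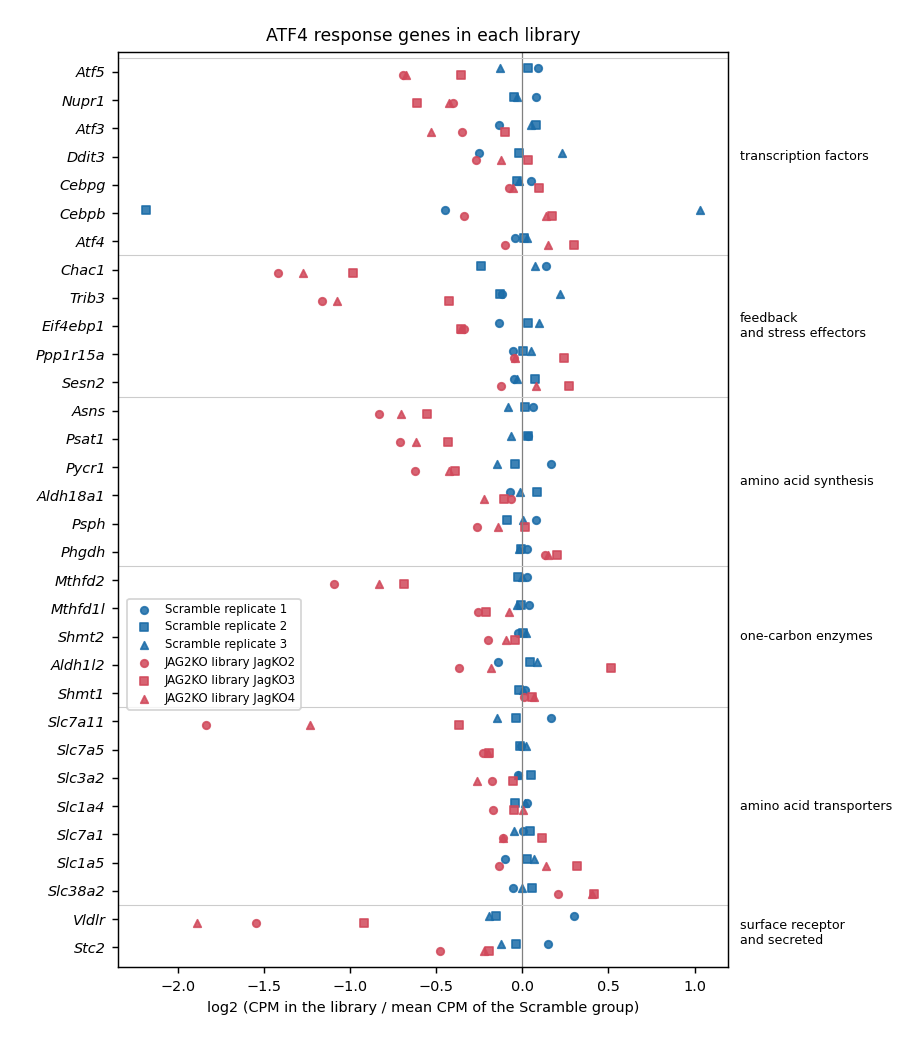
Each row is a gene and each point a library: the x axis gives log2 of its CPM over the mean CPM of the Scramble group, blue for Scramble and red for JAG2KO, with rows grouped by role. The JAG2KO points of Chac1, Trib3, Asns, Psat1, Mthfd2, Slc7a11 and Vldlr lie left of every Scramble point, and Cebpb is spread widely within Scramble.

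The transcription factor genes gave 3 that fell, 0 that rose and 4 that did not pass, with a median log2 fold change of -0.11. The share lower was 42.9%. Beside this and the role groups below stand the 12.5% lower and 11.8% higher of all tested genes. Atf4 (ENSMUSG00000042406.8, chromosome 15, 80255184 to 80257541 in GRCm38) measured 459, 475 and 481 CPM in Scramble replicates 1, 2 and 3. In the JAG2KO libraries JagKO2, JagKO3 and JagKO4 it measured 439, 579 and 522 CPM, so that JagKO2 lay below every Scramble library and the other two above them. The log2 fold change was 0.12 (SE 0.09, edgeR BH-adjusted p = 0.344). Without JagKO2 it was 0.23 and passed (edgeR BH-adjusted p = 0.0164, range over the alternatives 0.0164 to 0.845). Per length, Atf4 was the most abundant mRNA of the 32 in Scramble, at 673 ± 15.1 TPM (counts per kilobase of exon, scaled to the same sum in each library; SD, n = 3).

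Atf5, a related factor gene that is also controlled through translation, fell from 60.9, 58.5 and 52.3 CPM (Scramble) to 35.3, 44.7 and 35.8 CPM (JAG2KO). The groups did not overlap, and such a separation held for 18 of these 32 genes, 16 with JAG2KO lower and 2 with JAG2KO higher. Over all tested genes it held for 40.3%, 20.9% with JAG2KO lower and 19.5% with it higher. The log2 fold change of Atf5 was -0.57 (SE 0.10, edgeR BH-adjusted p = 0.00158). Nupr1, a stress-induced nuclear protein gene, fell from 29.5 ± 1.42 CPM (Scramble) to 21.2 ± 1.67 CPM (JAG2KO) (log2 fold change -0.48, SE 0.09, edgeR BH-adjusted p = 0.0029). Atf3, a stress-induced repressor and partner of ATF4, measured 289, 335 and 328 CPM in Scramble against 249, 296 and 220 CPM in JAG2KO. JagKO3 thus reached past Scramble replicate 1. The fall by 0.31 on the log2 scale (in edgeR, BH-adjusted p = 0.0368) was no longer called without Scramble replicate 2, Scramble replicate 3 or JagKO4 (adjusted p = 0.101 to 0.145, range over the alternatives 0.00036 to 0.145).

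Ddit3, the gene of the pro-apoptotic factor CHOP, measured 11.4, 13.4 and 15.8 CPM in Scramble against 11.2, 13.8 and 12.4 CPM in JAG2KO, which overlap. Its log2 fold change was -0.11 (SE 0.14, edgeR BH-adjusted p = 0.616). Cebpg, a C/EBP partner of ATF4, differed least, with 68.3 ± 2.16 CPM in Scramble against 67.8 ± 4.55 CPM in JAG2KO. Cebpb, another partner, measured 40.1, 12 and 112 CPM in Scramble against 43.3, 61.5 and 60.2 CPM in JAG2KO. The spread of Cebpb within Scramble was wider than any difference between groups (log2 fold change 0.01, SE 0.51), and the value was 1.07 without Scramble replicate 3 and -0.45 without Scramble replicate 2.

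Among feedback and effector genes, 3 fell (60%, beside 12.5% of all tested genes), 0 rose and 2 did not pass, with a median of -0.35. Chac1 (ENSMUSG00000027313.3, chromosome 2, 119351229 to 119354381), whose product degrades glutathione, measured 4.06, 3.12 and 3.87 CPM in Scramble against 1.38, 1.86 and 1.52 CPM in JAG2KO. Every JAG2KO library lay below every Scramble library, and the level was 2.32-fold lower (log2 fold change -1.21, SE 0.24, edgeR BH-adjusted p = 0.00351). Trib3, a pseudokinase gene that restrains ATF4 output, fell from 11.7, 11.6 and 14.8 CPM (Scramble) to 5.68, 9.48 and 6.03 CPM (JAG2KO) (log2 fold change -0.85, SE 0.20, edgeR BH-adjusted p = 0.00807). Eif4ebp1, which encodes a repressor of cap-dependent translation, fell by 0.35 on the log2 scale (in edgeR, BH-adjusted p = 0.00315). It stood at 209 ± 17.1 CPM in Scramble against 164 ± 1.07 CPM in JAG2KO. Ppp1r15a, the gene of GADD34, which brings a phosphatase to eIF2, measured 109 ± 3.96 CPM in Scramble against 114 ± 13.6 CPM in JAG2KO. Sesn2, whose product senses leucine and restrains mTORC1, measured 45 ± 2.01 CPM in Scramble against 47.7 ± 6.5 CPM in JAG2KO. Neither of these passed (edgeR BH-adjusted p = 0.654 and 0.58), and the 2 groups overlapped for both.

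The amino acid synthesis genes gave 3 that fell (50%, beside 12.5% of all tested genes), 0 that rose and 3 that did not pass, with a median of -0.30. Asns (ENSMUSG00000029752.12, chromosome 6, 7675169 to 7693254), which makes asparagine, measured 151, 146 and 136 CPM in Scramble against 81.2, 98.5 and 88.7 CPM in JAG2KO. The groups lay wholly apart (log2 fold change -0.69, SE 0.08, edgeR BH-adjusted p = 6.01e-05). Pycr1, the last step of proline synthesis, fell from 8.83 ± 0.993 CPM (Scramble) to 6.35 ± 0.54 CPM (JAG2KO) (edgeR BH-adjusted p = 0.0399). Its call was lost without any single library or without the low-count filter (adjusted p = 0.0502 to 0.161, range over the alternatives 0.0247 to 0.161). Aldh18a1, the enzyme upstream of Pycr1, measured 178 ± 9.61 CPM in Scramble against 163 ± 9.12 CPM in JAG2KO and did not pass (edgeR BH-adjusted p = 0.195).

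Of the 3 consecutive enzyme genes of the serine branch, Psat1 passed the test and Phgdh and Psph did not. Phgdh, the entry step, measured 296, 289 and 288 CPM in Scramble against 319, 334 and 322 CPM in JAG2KO. Every JAG2KO library was higher, yet the log2 fold change of 0.16 (SE 0.06) did not pass (edgeR BH-adjusted p = 0.0606). Phgdh passed with the filter of CPM 1, DESeq2, limma-voom or without JagKO2 (adjusted p = 0.0347 to 0.0457, range over the alternatives 0.0347 to 0.167). Psat1 (ENSMUSG00000024640.9, chromosome 19, 15904678 to 15947337), the aminotransferase that follows, fell from 277, 278 and 259 CPM (Scramble) to 166, 202 and 177 CPM (JAG2KO). The log2 fold change of Psat1 was -0.58 (SE 0.08, edgeR BH-adjusted p = 0.000201). Psph, the final phosphatase, measured 16.2 ± 0.963 CPM in Scramble against 14.8 ± 1.43 CPM in JAG2KO, and the groups overlapped (edgeR BH-adjusted p = 0.468). Its exons overlap 452 bases of Cct6a, which holds 91759 counts to 3802 of Psph, so the level of Psph is uncertain.

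The ratio of Psat1 to Phgdh counts was 0.935, 0.961 and 0.902 in Scramble and 0.52, 0.603 and 0.548 in JAG2KO. This pair, like the other ratios below, was chosen after its values were seen, so the ratio is given as a description without a test. In every JAG2KO library it lay below every Scramble library.

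Of the 1-carbon enzyme genes, 1 fell, 0 rose and 4 did not pass, with a median of -0.11. This 1 gene is 20% of the group, beside 12.5% of all tested genes, so the count says little about the group. Mthfd2 (ENSMUSG00000005667.8, chromosome 6, 83305691 to 83325908), a mitochondrial folate dehydrogenase and cyclohydrolase, measured 117, 113 and 115 CPM in Scramble against 53.9, 71.6 and 64.6 CPM in JAG2KO. The groups lay far apart, and the log2 fold change of -0.86 (SE 0.09, edgeR BH-adjusted p = 3.79e-05) had the smallest p of the 32. Shmt2, the step before it, measured 335, 341 and 345 CPM in Scramble against 296, 331 and 319 CPM in JAG2KO. JAG2KO was lower in every library, but the log2 fold change of -0.11 (SE 0.06) did not pass (edgeR BH-adjusted p = 0.225). Mthfd1l, the step after it, measured 204 ± 4.83 CPM in Scramble against 180 ± 11.7 CPM in JAG2KO (log2 fold change -0.18, edgeR BH-adjusted p = 0.0647). Without JagKO4 Mthfd1l passed (log2 fold change -0.23, adjusted p = 0.0442, range over the alternatives 0.0442 to 0.207), which takes the group's count to 2.

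The Mthfd2 to Shmt2 ratio was 0.349, 0.331 and 0.334 in Scramble and 0.182, 0.216 and 0.202 in JAG2KO. The cytosolic Shmt1 measured 44.4 ± 0.617 CPM in Scramble against 45.8 ± 0.969 CPM in JAG2KO, for a log2 fold change of 0.04 (SE 0.07). Aldh1l2, which oxidises the formyl group in mitochondria, measured 11.3, 12.9 and 13.3 CPM in Scramble against 9.68, 17.8 and 11 CPM in JAG2KO. The high JagKO3 value placed the groups across each other, and without it the log2 fold change was -0.27 rather than 0.04 (edgeR BH-adjusted p = 0.208, range over the alternatives 0.208 to 0.973). Exons of Aldh1l2 overlap 1056 bases of the opposite-strand gene D10Wsu102e, which holds 26192 counts to its 3090, so its level is uncertain.

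**Figure D2:**
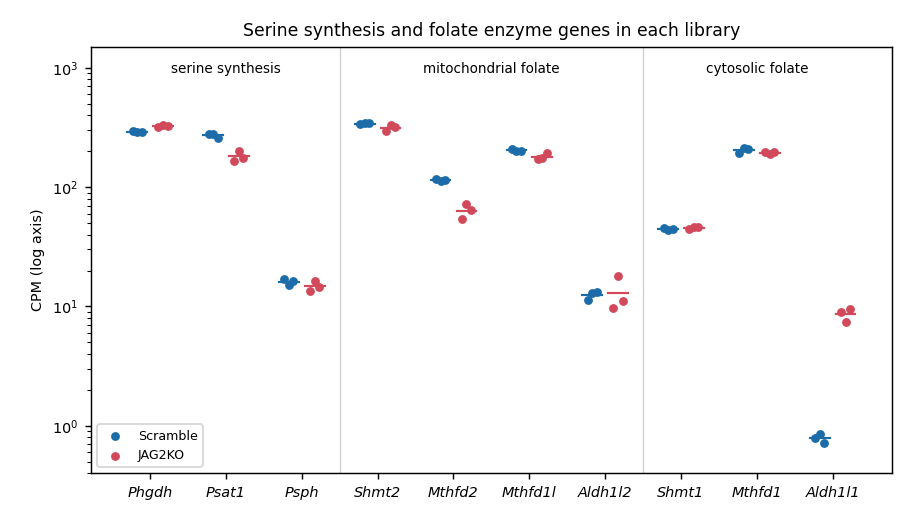
CPM on a log axis for serine synthesis, mitochondrial folate and cytosolic folate enzyme genes, 1 point per library and a bar at the group mean, blue for Scramble and red for JAG2KO. Psat1 and Mthfd2 are lower in JAG2KO, Phgdh, Psph, Shmt2 and Mthfd1l did not pass, and Aldh1l1 is higher in JAG2KO (0.785 against 8.6 CPM).

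Transporter genes gave 2 that fell, 1 that rose and 4 that did not pass, with a median of -0.07. Such counts are 28.6% lower and 14.3% higher, beside 12.5% and 11.8% of all tested genes. Slc7a11 (ENSMUSG00000027737.10, chromosome 3, 49892526 to 50443614), the cystine-glutamate exchanger, measured 10.1, 8.76 and 8.12 CPM in Scramble against 2.51, 6.97 and 3.83 CPM in JAG2KO. The JAG2KO libraries differed among themselves more than the Scramble libraries did, but the groups did not overlap. The log2 fold change was -1.02 (SE 0.29, edgeR BH-adjusted p = 0.0228). The Slc7a11 call was lost without Scramble replicate 1, Scramble replicate 2 or JagKO4 (adjusted p = 0.0555 to 0.0927, range over the alternatives 3.66e-06 to 0.0927). Slc7a5, the large neutral amino acid exchanger LAT1, fell from 272 ± 4 CPM (Scramble) to 235 ± 3.26 CPM (JAG2KO) (log2 fold change -0.21, SE 0.06, edgeR BH-adjusted p = 0.0193). It was no longer called without any Scramble replicate or JagKO4 (adjusted p = 0.0591 to 0.0671, range over the alternatives 0.00681 to 0.0671). Without Scramble replicate 1, Scramble replicate 2 or JagKO4 the transporter group had 1 call.

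Slc3a2, the shared heavy chain of Slc7a5 and Slc7a11, measured 239, 252 and 239 CPM in Scramble against 215, 234 and 203 CPM in JAG2KO, and did not pass although the groups did not overlap (log2 fold change -0.16, edgeR BH-adjusted p = 0.105). Without JagKO3 it passed as lower (log2 fold change -0.22, edgeR BH-adjusted p = 0.0465, range over the alternatives 0.0465 to 0.334). The ratio of Slc7a11 to Slc3a2 counts lay below the Scramble range in every JAG2KO library, with 0.0423, 0.0348 and 0.034 in Scramble and 0.0117, 0.0298 and 0.0189 in JAG2KO. The ratio of Slc7a5 to Slc3a2 overlapped between the groups, at 1.12 ± 0.0469 in Scramble and 1.09 ± 0.0756 in JAG2KO.

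Slc38a2, the sodium-coupled neutral amino acid transporter SNAT2, was the gene of the 32 that rose. It measured 401, 433 and 415 CPM in Scramble against 481, 556 and 552 CPM in JAG2KO (chromosome 15, 96687392 to 96699730). All 3 JAG2KO libraries lay above Scramble, with a log2 fold change of 0.35 (standard error 0.07, edgeR BH-adjusted p = 0.00365). Slc7a1, which carries cationic amino acids, measured 127 ± 3.96 CPM in Scramble against 124 ± 11.7 CPM in JAG2KO. Slc1a4 and Slc1a5, exchangers of small neutral amino acids and glutamine, had log2 fold changes of -0.07 and 0.12, and neither passed. Slc1a5 measured 222 CPM in JagKO2 but 305 and 268 in the other JAG2KO libraries, and passed as higher without JagKO2 (edgeR BH-adjusted p = 0.0286, range over the alternatives 0.0286 to 0.965).

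Vldlr (ENSMUSG00000024924.14, chromosome 19, 27216484 to 27254231), a lipoprotein receptor gene, had the largest fall of the 32. It measured 7.66, 5.6 and 5.45 CPM in Scramble against 2.14, 3.3 and 1.69 CPM in JAG2KO, 2.63-fold lower without overlap (log2 fold change -1.40, SE 0.26, edgeR BH-adjusted p = 0.0023). Stc2, a secreted glycoprotein gene, was near 1 CPM in every library. Its values were 1.04, 0.918 and 0.865 CPM in Scramble against 0.676, 0.825 and 0.808 CPM in JAG2KO, and a difference was not detectable at this depth (log2 fold change -0.29, SE 0.37).

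**Figure D3:**
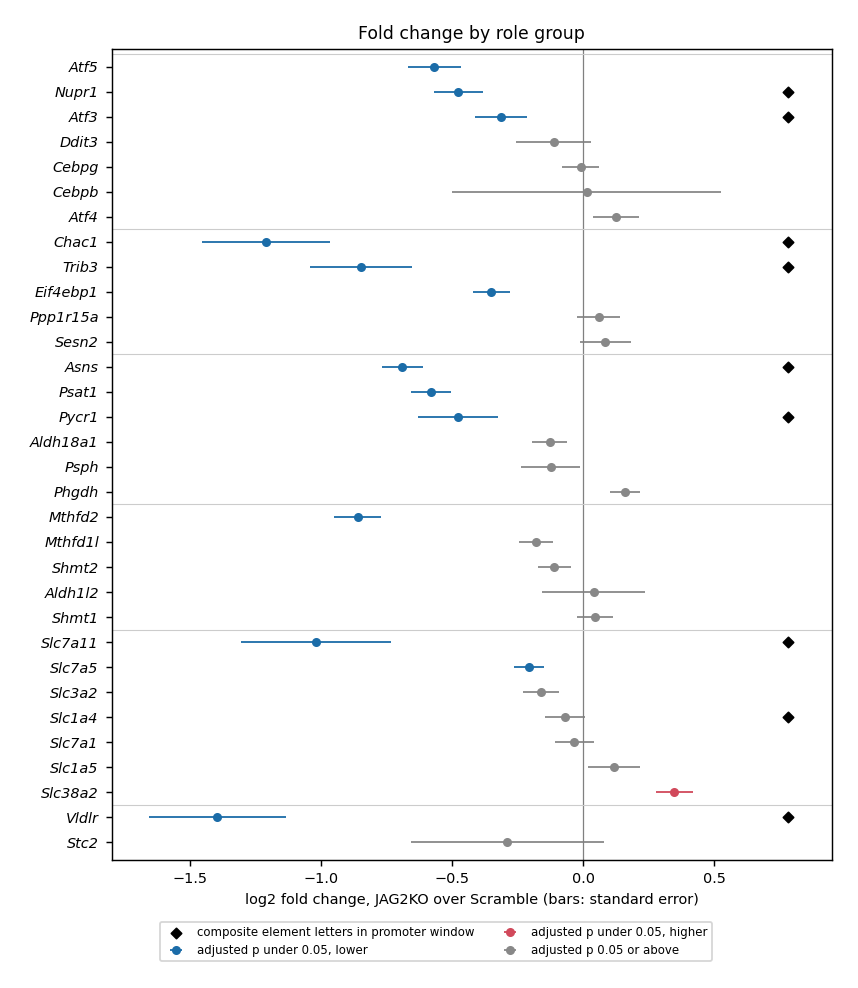
Points give the log2 fold change of each gene with its standard error, in role groups separated by lines; blue fell, red rose and grey did not pass the edgeR threshold. Black diamonds mark the 9 genes with the composite element letters in a promoter window, of which 8 are blue. Slc7a5, Eif4ebp1, Slc1a5 and Aldh1l2 had no window, so a missing diamond there does not mean that the letters were absent.

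Per length, the order of levels in Scramble was led by Atf4, followed by Atf3 (495 ± 38.5 TPM), Phgdh (394 ± 7.18 TPM) and Shmt2 (368 ± 4.56 TPM). Asns stood at 178 ± 9.69 TPM and Mthfd2 at 111 ± 2.06 TPM, the lowest being Vldlr (2.08 ± 0.418 TPM) and Stc2 (0.612 ± 0.0607 TPM). Slc7a11 and Vldlr, next to each other in that order, did not differ beyond their spread in TPM, nor did Chac1 and Pycr1. Set against Atf4 in the same library, the ratio of Asns to Atf4 counts was 0.329, 0.307 and 0.283 in Scramble and 0.185, 0.17 and 0.17 in JAG2KO. That of Ddit3 to Atf4 overlapped between the groups (0.0286 ± 0.00408 in Scramble and 0.0244 ± 0.000997 in JAG2KO). In JAG2KO the TPM of Psat1 was 147 ± 14.8, whereas that of Phgdh was 449 ± 11.1.

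The JAG2KO libraries kept a common order over much of the list. JagKO3 was the highest of its group for 26 of the 32 genes and JagKO2 the lowest for 25. Over all tested genes the corresponding shares were 32.6% and 35.9%, against 81.2% and 78.1% here. Among the 13 genes that fell, JagKO3 was the highest JAG2KO library for 11. Scramble showed no such order, with 15, 7 and 10 of the genes highest in replicates 1, 2 and 3. Without JagKO3 there were 13 genes lower and 1 higher, and without JagKO2 12 lower and 4 higher.

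Some of these genes lie among neighbours that changed too. The neighbours taken were up to 7 tested genes on each side with a mean of at least 2 CPM, in GENCODE M21 coordinates. The chromosome counts below have the same CPM limit. Over all tested genes, without that limit, 12.5% fell and 11.8% rose, so some changed neighbours occur around any gene. For Asns, 9 of 14 neighbours fell and 1 rose, with a median log2 fold change of -0.39, and for Mthfd2 9 of 14 fell and 0 rose, with a median of -0.41. Whether these 2 genes fell apart from their neighbours was not tested. Of the other 30 genes, 11 fell and 1 rose. Chac1 had 0 changed genes among 14 neighbours. Slc7a11 fell although 5 of its 14 neighbours rose and 0 fell. Around Vldlr 4 fell and 2 rose, around Psat1 likewise 4 fell and 2 rose, and around Phgdh 0 fell and 5 rose. Of the other tested genes of chromosome 19, which holds Psat1 and Vldlr, 128 of 417 fell and 31 rose. On chromosome 3, 30 of the 580 tested genes other than Phgdh fell and 189 rose, and Slc7a11 lies on this chromosome too. On chromosome 6, with Asns and Mthfd2, 167 of 561 fell and 86 rose. On chromosome 15, 42 of the 454 tested genes other than Atf4 fell and 92 rose, and Slc38a2 lies on this chromosome too. Around Atf4 1 of 14 neighbours fell and 5 rose, with a median log2 fold change of 0.25. Around Slc38a2 2 of 14 fell and 2 rose, with a median of 0.05.

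**Figure D4:**
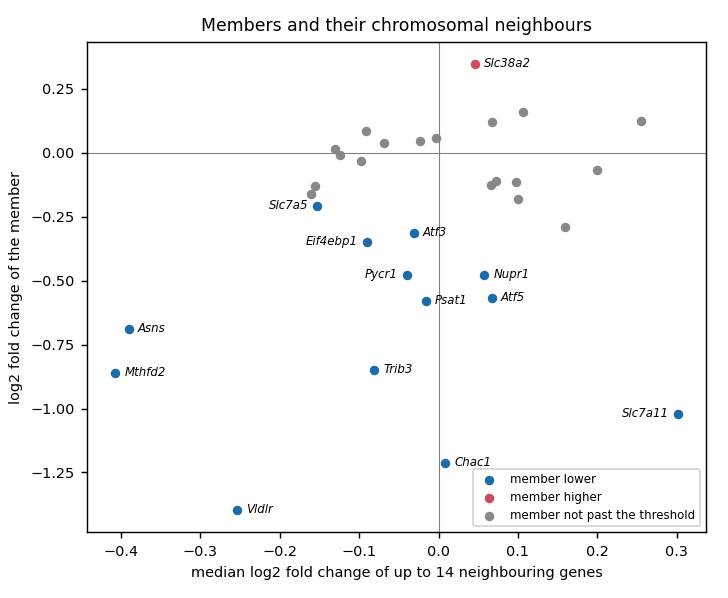
Each point is a gene of the list, with its log2 fold change on the y axis and the median log2 fold change of its chromosomal neighbours on the x axis; blue fell, red rose and grey did not pass. Asns and Mthfd2 sit at the left, with neighbour medians of -0.39 and -0.41, Slc7a11 at the right with 0.30, and Chac1 near 0.

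Upstream of ATF4, kinases and translation factors around eIF2 gave 4 that fell, 1 that rose and 11 that did not pass of 16 tested, with a median log2 fold change of -0.06. In shares, 25% fell and 6.25% rose, beside 12.5% and 11.8% of all tested genes. Eif2b2, a subunit of the exchange factor that recharges eIF2, measured 67.3, 69.2 and 71.2 CPM in Scramble against 34.4, 36 and 32.9 CPM in JAG2KO. Its level was 2.01-fold lower (log2 fold change -1.01, SE 0.07, edgeR BH-adjusted p = 1.54e-06), and 9 of its 14 neighbours on chromosome 12 also fell. Eif2a, an initiation factor gene outside the eIF2 complex, rose with a log2 fold change of 0.42 (edgeR BH-adjusted p = 0.00278), and 6 of its 14 neighbours rose. Exons of Eif2a overlap 72 bases of the opposite-strand gene Serp1, which holds 53995 counts to 22792 of Eif2a, so reads can be shared there. Eif2ak1, the haem-regulated eIF2 kinase gene, fell by 0.27 on the log2 scale (in edgeR, BH-adjusted p = 0.0185), a call lost without Scramble replicate 1, Scramble replicate 2 or JagKO3 (range over the alternatives 0.0114 to 0.0877). Exons of Eif2ak1 overlap 487 bases of the opposite-strand gene Aimp2, which holds 12433 counts to 12281 of Eif2ak1, so the level of Eif2ak1 is uncertain. The group had 2 calls without Scramble replicate 1 or Scramble replicate 2. The other kinase genes were not called. Eif2ak2 (PKR) measured 51.8 ± 4.32 CPM in Scramble against 62.3 ± 9.79 CPM in JAG2KO (log2 fold change 0.27, edgeR BH-adjusted p = 0.0995). Eif2ak3 (PERK) measured 19.4 ± 0.159 CPM in Scramble against 16.1 ± 0.901 CPM in JAG2KO, and Eif2ak4 (GCN2) 45.4 ± 4.12 CPM in Scramble against 44.5 ± 4.93 CPM in JAG2KO.

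Cytosolic aminoacyl-tRNA synthetase genes, which charge tRNAs and include reported ATF4 targets, gave 5 that fell, 0 that rose and 15 that did not pass of 20, with a median of -0.11. The share lower was 25%, beside 12.5% of all tested genes, of which 11.8% rose. Gars, for glycine, measured 278, 269.5 and 262 CPM in Scramble against 189, 203 and 193 CPM in JAG2KO. It fell by 0.47 on the log2 scale without overlap (SE 0.06, edgeR BH-adjusted p = 0.000185). Wars, for tryptophan, and Aars, for alanine, fell by 0.34 and 0.23 on the log2 scale (in edgeR, BH-adjusted p = 0.00299 and 0.0178). Aars was no longer called without Scramble replicate 2 (adjusted p = 0.106, range over the alternatives 0.00708 to 0.106). The group had 3 calls without Scramble replicate 1 or JagKO3, and 2 without Scramble replicate 2.

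In the wider folate, glycine and methionine cycle, 3 genes rose, 2 fell and 22 did not pass of 27 tested out of 29, with a median of -0.08. Those are 11.1% higher and 7.41% lower, neither above the 11.8% and 12.5% of all tested genes. Aldh1l1 (ENSMUSG00000030088.15, chromosome 6, 90486427 to 90600203), the cytosolic counterpart of Aldh1l2, measured 0.793, 0.849 and 0.713 CPM in Scramble against 8.9, 7.43 and 9.49 CPM in JAG2KO. This was 10.9-fold higher in JAG2KO (log2 fold change 3.45, SE 0.21, edgeR BH-adjusted p = 4.27e-07), and 1 of its 14 neighbours rose and 0 fell. Slc25a32, the mitochondrial folate carrier, fell by 0.52 on the log2 scale (in edgeR, BH-adjusted p = 0.0137). The call of Slc25a32 was lost without Scramble replicate 1 or JagKO4 (range over the alternatives 0.00356 to 0.0665). The group had 3 calls without Scramble replicate 1, Scramble replicate 2, Scramble replicate 3 or JagKO4. Folr1 and Ftcd were too low to be tested.

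Further reported ATF4 targets gave 4 that fell, 3 that rose and 12 that did not pass of 19 tested out of 20, with a median of 0.02. As shares, 21.1% fell and 15.8% rose, beside 12.5% and 11.8% of all tested genes. Slc6a9, the glycine transporter GlyT1, measured 19.8, 19.7 and 20.9 CPM in Scramble against 35.4, 28.5 and 31.4 CPM in JAG2KO. It rose without overlap (log2 fold change 0.66, SE 0.10, edgeR BH-adjusted p = 0.000486), and 5 of its 14 neighbours rose. Its exons overlap 1429 bases of the opposite-strand gene Ccdc24, which holds only 117 counts to 6293 of Slc6a9. They also overlap 46 bases of the opposite-strand gene B4galt2, which holds 18806 counts, so reads can be shared there. Ero1l, an oxidase gene of the endoplasmic reticulum, fell from 303 ± 14.7 CPM (Scramble) to 204 ± 29.4 CPM (JAG2KO) (edgeR BH-adjusted p = 0.000874). Jdp2, a bZIP repressor gene, fell by 0.58 on the log2 scale (in edgeR, BH-adjusted p = 0.00134), with 7 of its 14 neighbours on chromosome 12 lower. Fgf21 was too low to be tested.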

How the data were processed

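RNA from 6 libraries was analysed, 3 per group. Values are raw counts of reads per gene, as the authors deposited them. The submitters' processing notes name STAR 2.7.7a (an aligner) and HTSeq 0.11.2 (a counter). Build, annotation and strand setting are given by none of the sources used here. Genes with overlapping exons (such as Aldh1l2, Psph, Cebpb, Shmt1, Atf5, Ddit3 and Eif2ak1) or close copies can share reads. Scramble columns match sample titles. JAG2KO columns are numbered 2 to 4 against 1 to 3 in the titles, so they were used as JAG2KO libraries by column name. Of 55334 IDs, 55154 matched a symbol. Where a symbol had more than 1 ID, the most counted was taken.

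The test was run in R 4.3.3 by edgeR 4.0.16 (filterByExpr, minimum count 10, minimum total 15; TMM; quasi-likelihood F test; Benjamini-Hochberg over all tested genes, under 0.05). CPM uses TMM-scaled library sizes. The standard error is the absolute log2 fold change divided by the square root of F. Alternatives were RLE factors, library totals, no filter, CPM 1 in 3 libraries, DESeq2 1.42.0, limma-voom (limma 3.58.1) and each library left out. In each library 3 counts were worth 0.068 to 0.0811 CPM, which limits low genes. The procedures were tested on simulated data. All 32 members are named, with up to 3 called genes of smallest p from each of 4 further lists, except 1 gene that is not reported here. The members and lists were chosen with earlier results of these data known.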

Additional observations from a re-analysis of the deposited data

How the results depend on the processing

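Between 10 and 13 of the 32 genes were lower with each other normalization, filter or tool and with each JAG2KO library or Scramble replicate 1 or 3 left out, and 9 without Scramble replicate 2. The number higher, 1 as reported, was 2 with the filter of CPM 1 in 3 libraries, DESeq2 or limma-voom, and 1 to 4 when a library was left out. The cause was not tested. Of 383 repeats of single genes, 341 kept their direction and side of the threshold, 17 lost the call, 8 gained it and 17 turned direction, none of the last being a called gene.

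Leaving out a library gave 1 to 2 calls among the 1-carbon enzymes, 1 to 4 among transporters, 2 to 6 around eIF2, 2 to 5 among tRNA synthetases and 3 to 4 in the wider folate group. Further ATF4 targets had 11 calls without the low-count filter, where 29041 genes were tested.

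Direction turned for values near 0. Cebpg gave 0.0002 without a filter, 0.0030 with the filter of CPM 1, and -0.0655 to 0.0275 over left-out libraries. Aldh1l2 gave -0.0112 with limma-voom, and -0.27 to 0.21 over left-out libraries. For left-out libraries the range was -0.21 to 0.0112 for Ddit3, -0.45 to 1.07 for Cebpb, -0.0175 to 0.18 for Sesn2, -0.0431 to 0.11 for Ppp1r15a and -0.11 to 0.0052 for Slc7a1.

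No paired analysis was possible because the JAG2KO columns do not carry the replicate numbers of the sample titles. Depth limits Stc2, Chac1 and Vldlr most.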

Other observations

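Some genes varied more within a group than between groups. Vegfa, a growth factor gene reported as an ATF4 target, measured 153, 149.7 and 157 CPM in Scramble but 89.5, 198 and 206 CPM in JagKO2, JagKO3 and JagKO4. Ddit4, an mTORC1 inhibitor gene, measured 169, 176 and 186 CPM in Scramble and 152, 209 and 255 CPM in the same JAG2KO libraries. In both, JagKO2 lay below every Scramble library and the other two above.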
